A study of Bos taurus with 24 samples.

Results

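The imprinted DLK1-DIO3 miRNA cluster is a run of miRNA genes at the end of bovine chromosome 21. Its members were taken as every row of the deposited table with a bovine miRNA name and a start between 65.7 and 66.2 Mb on chromosome 21, a window of 500 kb. This gave 56 mature miRNAs of 870 rows in the table, 626 of which carry bovine names. The window uses no measured value, but the cluster was chosen with earlier results of these data known. Of the 56, 48 had a count in at least 6 of the 24 libraries and were tested, together with 554 of the 870 rows in all. A further 6 (miR-411b, miR-758, miR-329a, miR-376c, miR-539 and miR-544a) had between 1 and 5 counts in total and were not tested, and 2 (miR-329b and miR-1193) had none.

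The libraries were small-RNA libraries from the plasma of 8 Holstein-Friesian heifers in the second year of life. Each animal was bled at 3 points of its cycle, Day 0, Day 8 and Day 16, and so gave 3 of the 24 libraries, with 8 libraries from each day. Day 0 was the first day of observed oestrus, Day 8 falls in the mid-luteal phase and Day 16 late in the luteal phase. All heifers carried no pregnancy and had their cycles synchronised with a progesterone insert, buserelin and cloprostenol, so every day shares that treatment and no untreated group was used here. EDTA plasma was spun first to remove cells and then again to remove debris and platelets, and levels are amounts relative to other miRNAs in the same plasma, so that release, clearance and cell carry-over cannot be told apart.

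The cluster lies between the protein-coding genes DLK1 and DIO3. In placental mammals its miRNAs are transcribed from the chromosome inherited from the mother. The long non-coding RNAs MEG3 and MEG8 and many snoRNAs come from the same chromosome. DLK1, RTL1 and DIO3 are expressed from the paternal copy. In mice and humans the miRNAs are abundant in embryo, placenta and brain and low in most adult tissues, and in sheep the callipyge mutation of this locus enlarges muscle. Several miRNAs of the first group lie antisense to RTL1, and in mice miR-127 and miR-136 direct cleavage of that transcript. The larger group, from miR-379 onwards, includes the miR-154 family of related hairpins.

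The mature sequences are shown for 5 of the members with the highest levels, the only ones whose unmodified sequence was in the study's isomiR list. They carry most of the counts and include 3 of the 9 members with an unadjusted p under 0.05 at oestrus. None was available for miR-136 or miR-381. Each is written 5′ to 3′ as DNA letters, as the study lists its reads, with bases 2 to 8, the seed that pairs with targets, in capitals. Coordinates are those of the deposited table, which names no genome build. The study used UMD 3.1 as its reference genome.
miR-127 (chr21:65868487-65868508, plus strand): tCGGATCCgtctgagcttggct
miR-380-3p (chr21:66003709-66003729, plus strand): tATGTAATgtggtccacgtct
miR-154c (chr21:66014165-66014186, plus strand): aGATATTGcacggttgatctct
miR-369-3p (chr21:66042453-66042473, plus strand): aATAATACatggttgatcttt
miR-410 (chr21:66042784-66042804, plus strand): aATATAACacagatggcctgt

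None of the 5 seeds was the same as another. The nearest were those of miR-369-3p and miR-410, which differed at 2 of 7 bases, as did those of miR-380-3p and miR-410. The bases A and T made up 76.2% of miR-369-3p and 40.9% of miR-127, the extremes of the 5. Outside the seed, miR-154c and miR-369-3p shared a run of 9 bases towards the 3′ end, at positions 12 to 20 of miR-154c and 11 to 19 of miR-369-3p, in capitals here.
miR-154c, shared run: agatattgcacGGTTGATCTct
miR-369-3p, shared run: aataatacatGGTTGATCTtt

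The 56 members spanned 190.7 kb, and 54 lay on the plus strand. All 56 were matched by name to bovine miRNA genes of RefSeq, in a different genome build. There MEG3 and DLK1 lie before the first member and DIO3 after the last, 5 members (miR-431, miR-433, miR-127, miR-432 and miR-136) lie within the bounds of RTL1 and 3 within those of MEG8, and 33 snoRNA genes are interspersed. The 2 minus-strand members were miR-3578, which covers the same bases as miR-382, and miR-409b, which lies within the hairpin of miR-409a. The first group, from miR-493 to miR-136, comprised these 5 with miR-493 and miR-665 before them, all tested, and 41 of the other 49 members were tested.

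**Figure D1:**
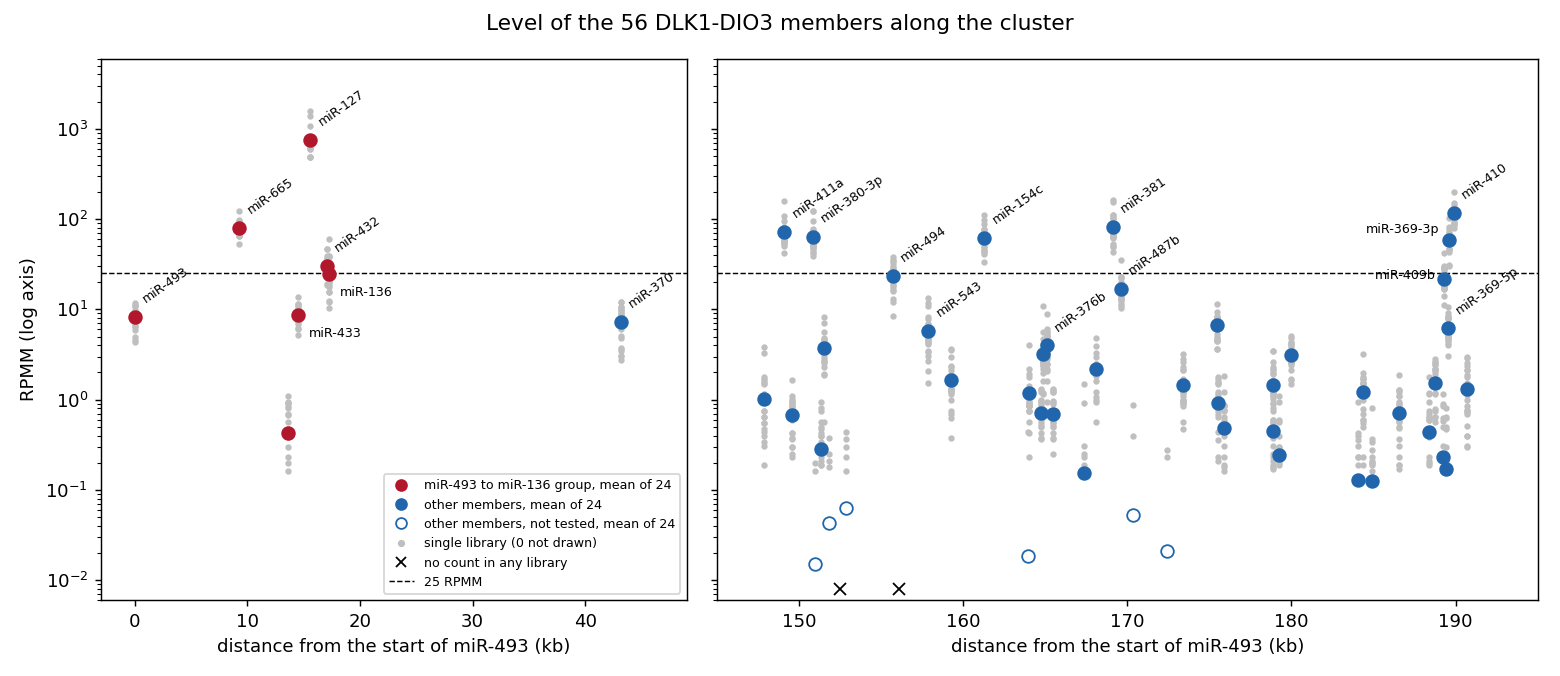
Reads per 1000000 mapped reads (RPMM, log axis) of each member against its distance in kb from the start of miR-493, with coloured points for means over 24 libraries and grey points for single libraries. Only 8 members passed 25 RPMM (dashed line) in at least 6 of 8 libraries on every day, and members with high and low levels stand next to each other throughout.

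The cluster took a small share of plasma miRNA. Of the miRNA counts in a library, between 1299679 and 4700764, its members together took an average of 0.275% ± 0.116 for Day 0, 0.189% ± 0.0277 for Day 8 and 0.188% ± 0.0318 for Day 16 (SD over 8 heifers). The range was 0.173% to 0.498% on Day 0, 0.156% to 0.225% on Day 8 and 0.129% to 0.218% on Day 16. The days overlapped, and the 3 highest shares of the 24 were Day 0 libraries, of heifers 16, 18 and 22 (0.498%, 0.391% and 0.299%). The library of heifer 16 was also the one with the fewest counts. Between 38 and 47 members had a count in a library, and 30 had one in all 24.

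Levels within the cluster were very uneven. miR-127, which in human cells represses BCL6, alone held 50.7% of the cluster's counts and ranked 71 of the 870 rows. It was followed by miR-410 with 8.02%, miR-381 with 5.47%, miR-665 with 5.42%, miR-411a with 4.81%, miR-380-3p with 4.31%, miR-154c with 4.19% and then miR-369-3p. These 8 held 86.9% of the counts and were the ones that passed the 25 RPMM limit. The miR-493 to miR-136 group held 61.0% of the counts and the other members 39.0%. Within a few kb, miR-431 had 45 counts in all, against 75571 of miR-127.

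Both arms of a hairpin were listed for miR-369 and miR-411c. miR-369-3p, known from human cells for raising translation of the TNF mRNA in resting cells, had 5965 counts against 622 of miR-369-5p, 90.6% of both arms together, and was the higher arm in 24 of 24 libraries. For miR-411c the order was the opposite. The 3p arm had 92 counts against 683 of the 5p arm, or 11.9%, and was the higher arm in 0 libraries. miR-376a and miR-376d, which belong to a group of near-identical copies, had the same count in 21 of 24 libraries (71 and 73 counts in all). How reads that fit both were assigned is not given in the sources used here, so their values may not be separate measurements.

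At oestrus, 1 member was called higher than on the later days. miR-136, one of the 5 miRNAs within RTL1, was 0.74 higher on the log2 scale on Day 0 than the mean of Days 8 and 16 (SE 0.17, a 1.67-fold difference, adjusted p = 0.0623, edgeR quasi-likelihood test with heifer as a block and Benjamini-Hochberg adjustment over 554 rows, called at 0.1). Its level in counts per 1000000 after TMM scaling (CPM) was 32.2 to 93.3 with a median of 42 on Day 0, 20.5 to 35.3 with a median of 27.8 on Day 8, and 21.7 to 43.1 with a median of 25.7 on Day 16. The days overlapped, but within animals all 8 heifers were higher on Day 0, from 0.12 in heifer 34 to 1.78 in heifer 18. In RPMM, on the log2(RPMM + 1) scale, the difference was 0.80 ± 0.61 (SD, n = 8), with an exact sign-change permutation p of 0.00781, two-sided and unadjusted, the smallest that 8 animals allow. The call ended without heifer 18 (adjusted p = 0.180), heifer 22 (0.190) or heifer 35 (0.101), and with a term for erythrocyte miR-486 and miR-451 the difference was 0.57 (adjusted p = 0.212). It was lost as well when limma was used, at an adjusted p of 0.148 for log2(RPMM + 1), 0.207 for log2(RPMM + 0.1) and 0.309 for voom weights, and in the repeated-measures model (0.180).

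Over all 554 rows the same test called 2 higher (0.361%) and 0 lower (0.0%), and of the 48 members 1 and 0. At an unadjusted p under 0.05, 9 members were higher and 0 lower, against 33 (5.96%) and 26 (4.69%) of the 554. Since the members were measured in the same libraries and many may share a transcript, they are not separate pieces of evidence. miR-381 and miR-154c, both in the larger group, came next after miR-136, at 0.53 (SE 0.14) and 0.47 (SE 0.13), both with an adjusted p of 0.143. They lie 7.8 kb apart, with other members between them. miR-376b, of a family whose human and mouse members are edited from A to I in brain, was at 0.67 (SE 0.23, adjusted p = 0.322). miR-487b at 0.42 (SE 0.17), miR-369-3p at 0.31 (SE 0.12), miR-432 at 0.36 (SE 0.14) and miR-380-3p at 0.37 (SE 0.16) had an adjusted p of 0.412 each, and miR-370 was at 0.48 (SE 0.23, adjusted p = 0.446). None of these 8 passed the test across all rows.

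Day 0 levels of miR-381 were 99.2 to 268 CPM with a median of 134, those of Day 8 71.5 to 131 with a median of 101 and those of Day 16 79.4 to 143 with a median of 97.5. miR-154c had 70.2 to 152 CPM with a median of 99.9 on Day 0, 57.0 to 104 with a median of 70.1 on Day 8 and 62.7 to 99.97 with a median of 77.3 on Day 16. For both, Day 0 overlapped each later day, and 7 of 8 heifers were higher on Day 0, all but heifer 21. miR-369-3p was tighter, at 82.0 to 116 CPM with a median of 93.2 on Day 0, 59.9 to 92.4 with a median of 70.8 on Day 8 and 62.5 to 93.4 with a median of 83.3 on Day 16. It too was higher on Day 0 in the 7 heifers other than heifer 21. miR-376b had 4.40 to 13.6 CPM with a median of 6.57 on Day 0, 1.86 to 6.23 with a median of 3.71 on Day 8 and 4.36 to 7.11 with a median of 5.11 on Day 16, which is 5 to 31 counts in a library.

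**Figure D2:**
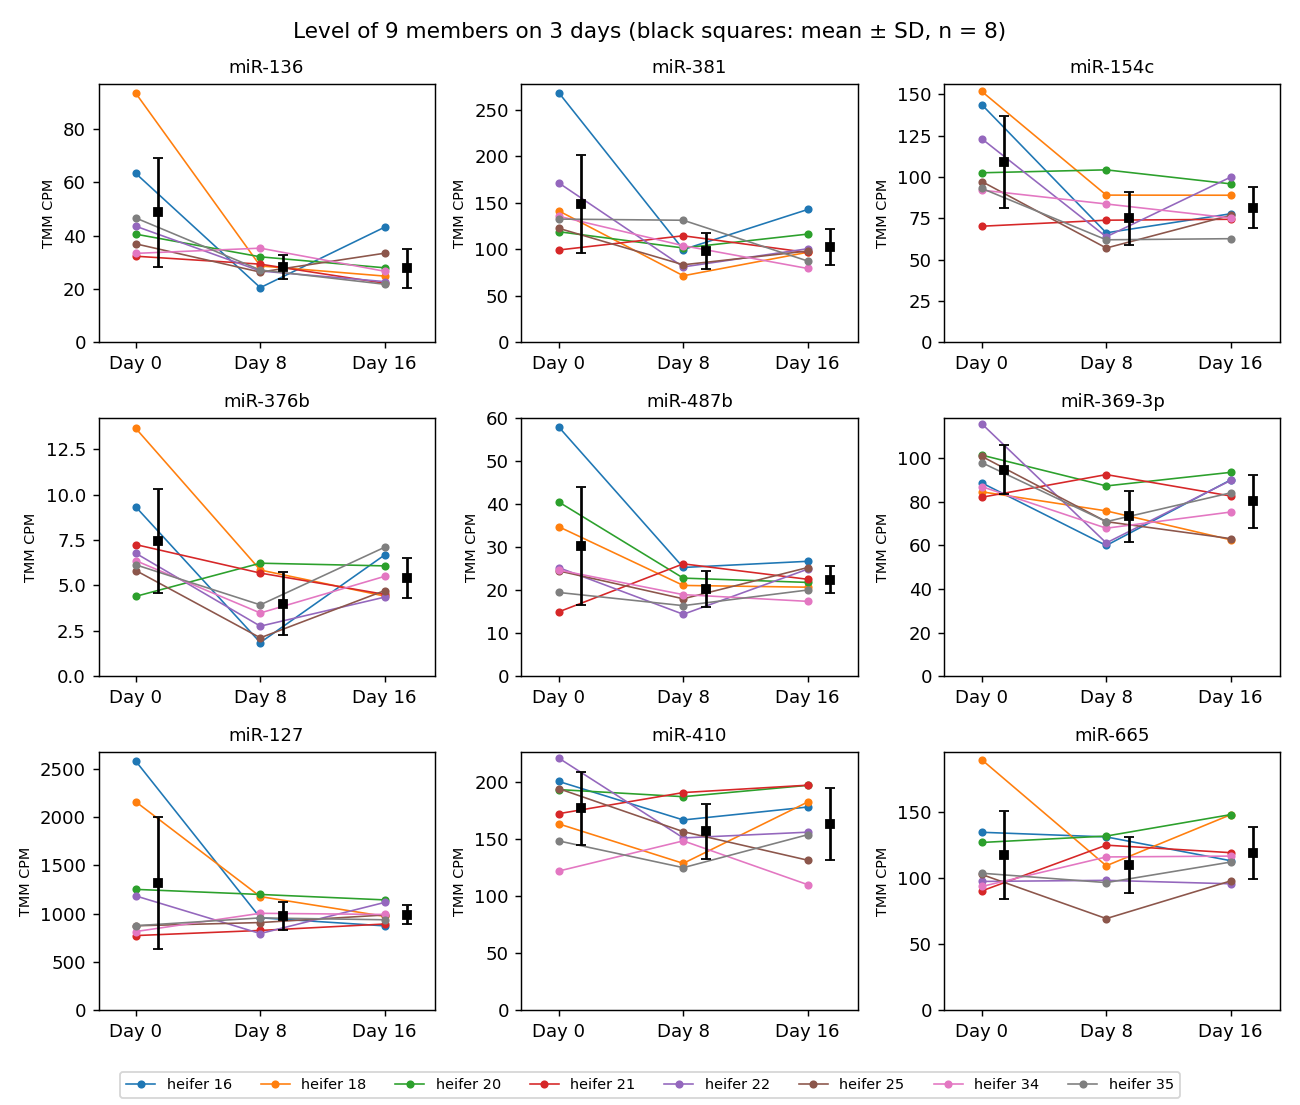
Level of 9 members in TMM CPM on Days 0, 8 and 16, with a line for each heifer and black squares for the mean ± SD (n = 8 on each day). miR-136 was higher on Day 0 than the mean of the later days in all 8 heifers, miR-410 in 6, miR-665 in 4 and miR-127 in 4. Among the Day 0 levels of miR-127, those of heifers 16 and 18 were the highest.

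Other abundant members were not called at oestrus. miR-127 had 774 to 2577 CPM with a median of 1030 on Day 0, 795 to 1199 with a median of 957 on Day 8 and 874 to 1143 with a median of 980 on Day 16. Its difference of 0.31 (SE 0.16, adjusted p = 0.454) was not called, and 4 of 8 heifers were higher on Day 0, with heifers 16 and 18 at 1.49 and 1.01 and the rest between -0.29 and 0.33. miR-411a was at 0.27 (SE 0.16), miR-409b at 0.30 (SE 0.16), miR-494 at 0.14 (SE 0.15), miR-410 at 0.14 (SE 0.12) and miR-665 at 0.03 (SE 0.13), and none was called (adjusted p from 0.466 to 0.975). Without heifer 16 miR-127 was at 0.18 and miR-411a at 0.13. For miR-411a heifer 16 stood at 1.49 and the others between -0.27 and 0.32. miR-410, which in mouse islet cells affects insulin secretion, was nearly level across days, with medians of 183, 154 and 167 CPM on Days 0, 8 and 16.

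The members leaned one way as a group. Of the 48 tested, 35 (72.9%) were above 0 at oestrus, against 46.4% of all 554 rows, and the median difference was 0.25, against -0.03 over all rows. Without miR-154a, which had no count on Day 16, the median was 0.23. Among the 16 members of 10 CPM or more, a limit set after the values were seen, 14 were above 0 with a median of 0.31, against 41.9% of the 258 rows at that level, with a median of -0.06. The exceptions were miR-493 and miR-433, 2 members of the first group at about 12 CPM. The median was 0.31 over the 7 members from miR-493 to miR-136 and 0.23 over the 41 others. Below 10 CPM the differences ran from -0.64 (miR-377, 72 counts in all) to 1.35 (miR-409a, 23 counts in all), and errors were large. These counts are descriptions, since the cluster was known from earlier results of these data to be higher at oestrus.

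**Figure D3:**
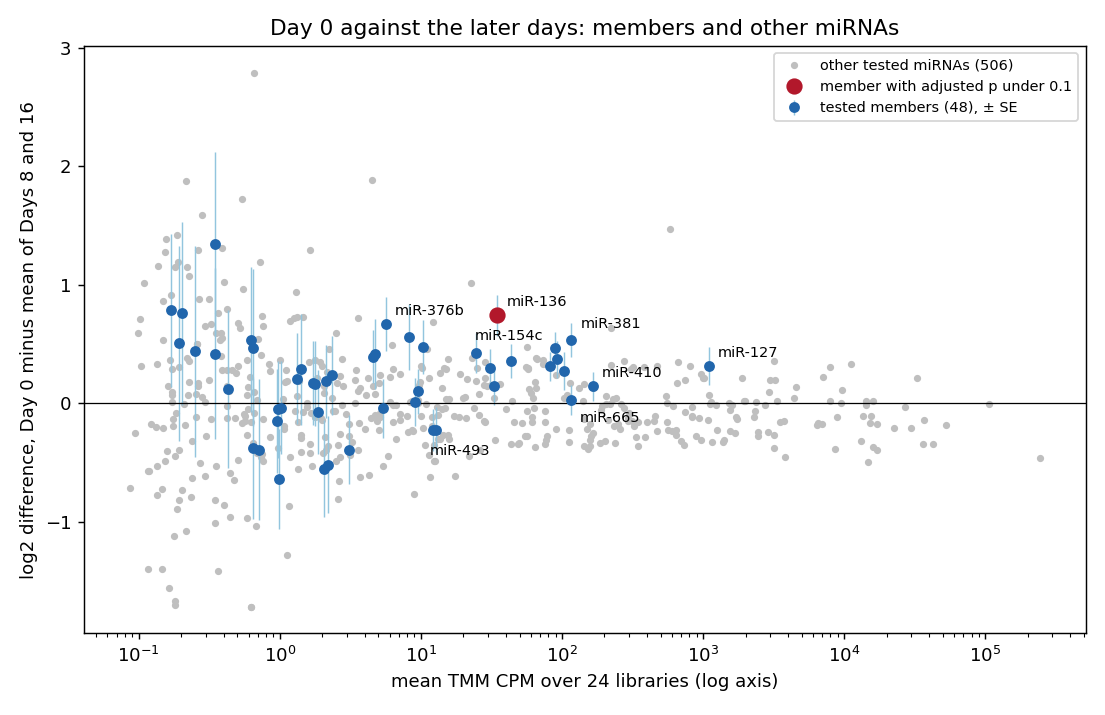
Log2 difference of Day 0 minus the mean of Days 8 and 16 against mean CPM over 24 libraries (log axis), for the 48 tested members (blue, ± SE) and the other 506 tested miRNAs (grey). Most members above 10 CPM lie above 0, and only miR-136 (red) was called.

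The summed level of the members was 1655 to 4310 CPM with a median of 2232 on Day 0, 1581 to 2303 with a median of 1889 on Day 8 and 1802 to 2280 with a median of 1956 on Day 16. Within heifers it was 0.30 ± 0.45 higher on the log2 scale on Day 0 (SD, n = 8) and above 0 in 6 of 8, and without miR-127 it was 0.29 ± 0.30 and above 0 in 7 of 8. The heifers were unlike one another in this. In heifer 16 all 16 of the more abundant members were higher on Day 0, with a median of 0.76, and in heifer 22 15 of 16, with a median of 0.51. In heifer 21 only 1 of the 16 was higher on Day 0, miR-136, and the median was -0.24. Heifer 34 had 9 of 16 and the remaining heifers 11 to 14.

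**Figure D4:**
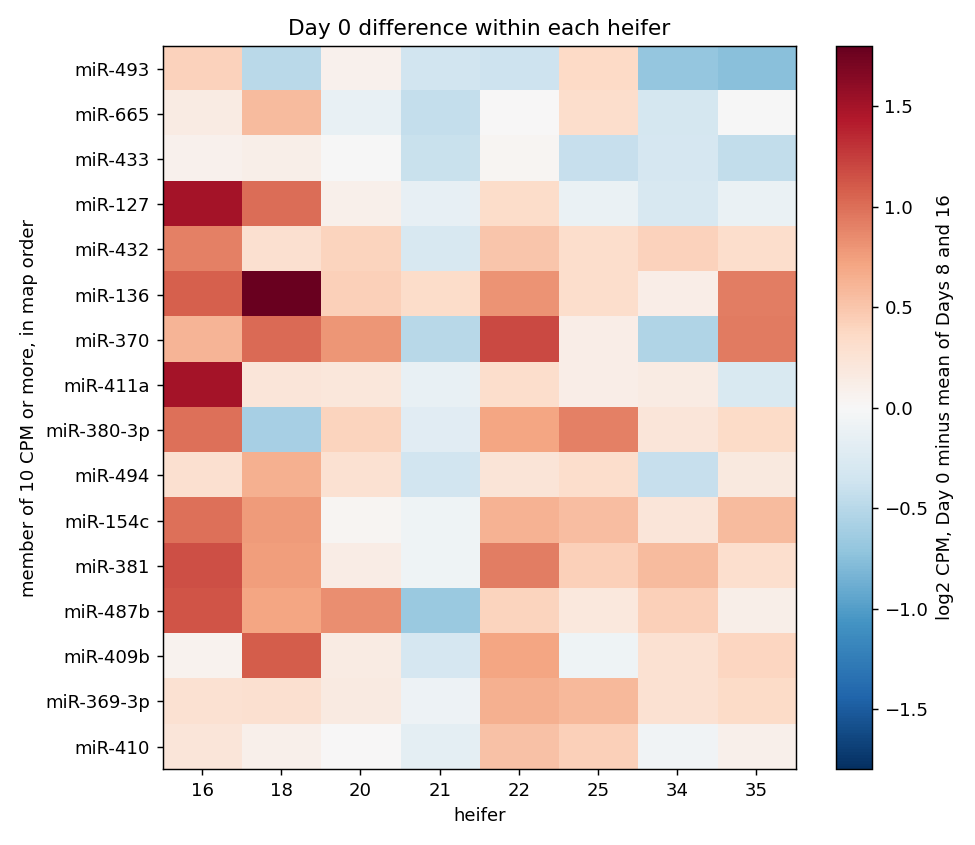
Within-heifer log2 difference of Day 0 minus the mean of Days 8 and 16 (colour) for the 16 members of 10 CPM or more, in map order, in each of 8 heifers. The row of miR-136 is above 0 throughout, and the column of heifer 21 is below 0 for every member except miR-136.

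Leaving heifer 21 out raised the calls. Without it 6 members were called higher on Day 0 (miR-136, miR-381, miR-154c, miR-487b, miR-432 and miR-370, by 0.84, 0.66, 0.59, 0.60, 0.49 and 0.67), of 20 calls among 542 rows. In heifer 21 only 1 of the 16 more abundant members was higher on Day 0. Larger differences and more calls without this animal therefore follow in part from the choice. Under the limit of 25 RPMM in at least 6 of 8 libraries on every day, miR-136 was not among the rows tested, being above 25 RPMM in 6, 1 and 1 libraries on Days 0, 8 and 16. The 8 members left were all above 0 there, and miR-154c and miR-381 were called (adjusted p = 0.0493 each), 2 of 5 calls higher on Day 0 among 181 rows (2.76%).

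No member was called between any 2 single days. On Day 8 against Day 0, 0 of 48 members and 0 of 554 rows (0.0%) were called, and 10 members were lower and 0 higher on Day 8 at an unadjusted p under 0.05, against 25 (4.51%) and 33 (5.96%) of all rows. The smallest p were those of miR-136 at -0.71 (SE 0.20), miR-154c at -0.53 (SE 0.16), miR-376b at -0.90 (SE 0.27) and miR-381 at -0.55 (SE 0.17), with an adjusted p of 0.235 each. The median of the members was -0.24, against 0.10 over all rows. Without heifer 21, 8 members were called, of 19 calls among 542 rows, which again follows in part from the choice of animal. With all heifers DESeq2 called 6 members, of 15 calls in all. DESeq2 left rows of low mean count out of its adjustment here, so it adjusted over fewer than the 554 rows.

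On Day 16 against Day 0, 0 members were called and 1 of 554 rows (0.181%). At an unadjusted p under 0.05, 3 members were lower and 0 higher on Day 16 (miR-136 at -0.77, miR-381 at -0.51 and miR-154c at -0.41), against 29 (5.23%) and 22 (3.97%) of all rows. Their adjusted p were 0.254, 0.396 and 0.442, and the median of the members was -0.25, against -0.003 over all rows. Days 8 and 16 were each set against the same Day 0 libraries, so both comparisons share whatever is particular to those libraries.

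On Day 16 against Day 8, 0 members were called and 0 of 554 rows (0.0%), and 1 member, against 27 rows (4.87%), had an unadjusted p under 0.05. It was miR-154a, with 0 counts on Day 16 and 8 on Day 8, too few for a fold. For miR-136 the difference was -0.06 (SE 0.20) and for miR-127 0.04 (SE 0.18). miR-655 at 0.66 (SE 0.36), miR-376b at 0.47 (SE 0.27) and miR-376e at -0.68 (SE 0.41) had an adjusted p of 0.731. DESeq2 called 0 members as well. For any effect of day, 0 members and 0 rows (0.0%) were called, and 7 members had an unadjusted p under 0.05, against 49 rows (8.84%). DESeq2 called 1 member, miR-136, of 2 calls in all.

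Few members were called as different between animals. Across the 8 heifers, with day in the fit, 1 of 48 members was called (2.08%) against 61 of 554 rows (11%), and 4 members (8.33%) against 103 rows (18.6%) had an unadjusted p under 0.05. The difference between these shares was not tested. Of the 48 members, 16 were at 10 CPM or more, against 258 of the 554 rows, and the part of low counts in the shares was not tested either. The called member was miR-493, which in human tumours restrains spread to the liver, with an adjusted p of 0.0822. It averaged 16.0 ± 3.03 CPM in heifer 16, 15.9 ± 3.52 in heifer 18 and 15.3 ± 1.06 in heifer 20, against 7.17 ± 1.28 in heifer 25 and 7.81 ± 2.83 in heifer 34 (SD, n = 3 days each). The lowest of the 9 libraries of heifers 16, 18 and 20 stood at 12.3 CPM. The highest of the 6 of heifers 25 and 34 stood at 10.9 CPM, so these did not overlap. These heifers were picked as the highest and lowest for miR-493, so the gap follows in part from the choice. The other heifers lay between 7.58 and 17.1 CPM. The call rested on the set of animals and on the model. It ended when heifer 16, 18, 20, 25 or 34 was left out and when counts were scaled by library totals. It also ended with limma on log2(RPMM + 1) or log2(RPMM + 0.1) and in the repeated-measures model, which called miR-1185 and not miR-493.

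miR-409b followed with an adjusted p of 0.111, averaging 45.6 ± 2.89 CPM in heifer 20 and 20.9 ± 3.15 in heifer 34. miR-369-5p (adjusted p = 0.192) ranged from 14.9 ± 3.44 CPM in heifer 16 to 5.98 ± 2.51 in heifer 25. Its other arm, miR-369-3p, had an adjusted p of 0.915 between heifers. miR-1185 (adjusted p = 0.232) had 13 counts in all and averaged 1.12 ± 0.72 CPM in heifer 34, against 0.15 or less in every other heifer.

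Correlations among the more abundant members were mostly positive. When the effects of day and heifer were removed from log2 CPM, the 120 pairs among the 16 members of 10 CPM or more had a median Pearson r of 0.33 over 24 libraries, and 89.2% of the pairs were above 0. The pairs of these members with the other 242 rows at that level had a median of -0.04, and the pairs among those 242 rows 0.02. All points share library and depth, and the values are given as a description. The highest r were those of miR-127 with miR-411a (0.77), 133.5 kb apart and in different groups, miR-432 with miR-411a (0.76) and miR-127 with miR-154c (0.72). The lowest was that of miR-433 with miR-369-3p (-0.47). For miR-127, miR-411a and miR-432 the Day 0 library of heifer 16 held the highest level of the 24 (2577, 262 and 76.6 CPM). How far that library makes the highest r was not tested.

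**Figure D5:**
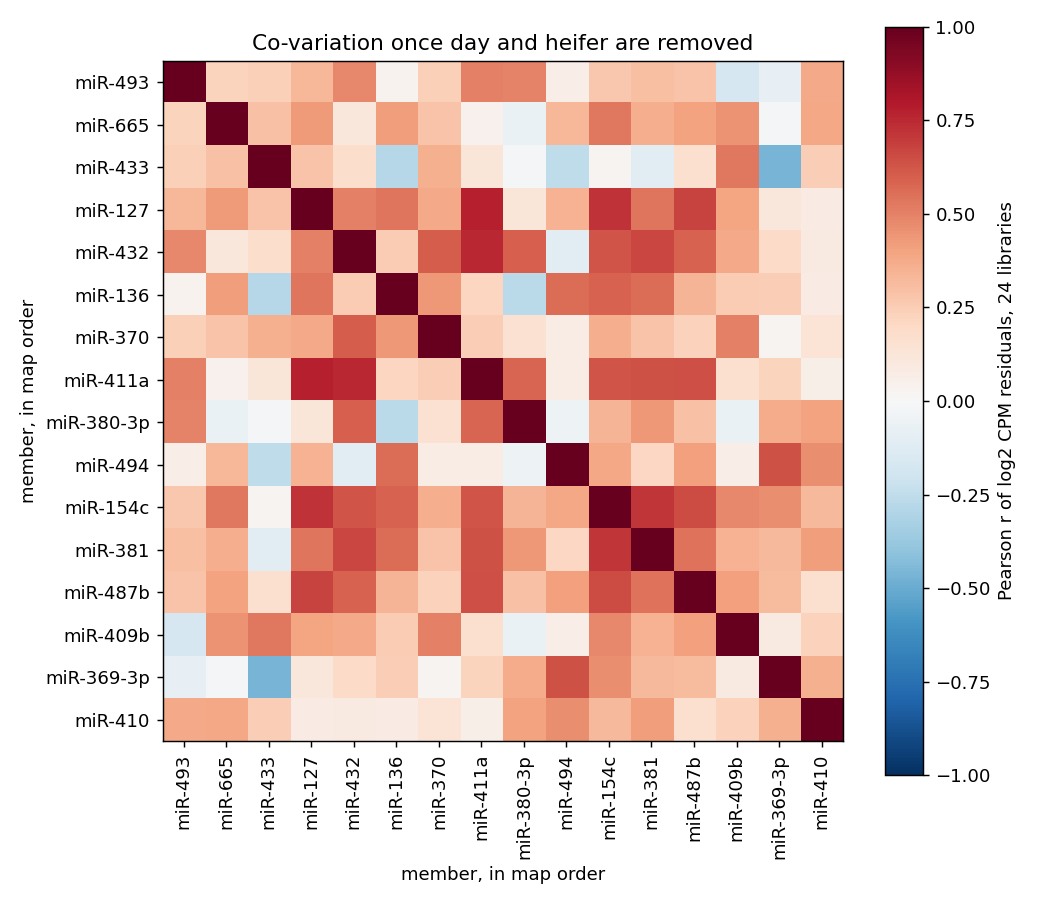
Pearson r of log2 CPM over 24 libraries between the 16 members of 10 CPM or more, in map order, after the effects of day and heifer were removed. Most cells are above 0, with a median of 0.33, and miR-433 has the lowest value, -0.47 with miR-369-3p.

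Markers of blood cells and tissues were set beside the Day 0 values. The 4 erythrocyte markers, led by miR-486, were at a median of -0.36 with 0 called, and their summed level was 57576 to 610335 CPM on Day 0, 78179 to 454034 on Day 8 and 132821 to 757571 on Day 16. The 6 platelet and 6 leukocyte markers were at medians of -0.24 and -0.22, with 0 called in each. In each list 1 was lower at an unadjusted p under 0.05, miR-126-3p at -0.32 and miR-146a at -0.34, and 0 were higher. The 6 mesenchymal markers were at 0.35, with 0 called and 3 higher at an unadjusted p under 0.05, and their summed level was 12590 to 59898 CPM on Day 0, 9241 to 38480 on Day 8 and 9683 to 24779 on Day 16. The 6 striated muscle markers had sums of 161 to 2718, 50.8 to 3788 and 55.3 to 1758 CPM on Days 0, 8 and 16. Their median was 0.52, with values from -1.01 (miR-208a) to 1.47 (miR-133a). Of them 0 were called and 2 were higher at an unadjusted p under 0.05. miR-133b is not on this list. It was the other row called at oestrus, at 1.88 (SE 0.39, adjusted p = 0.0312, edgeR quasi-likelihood test), and was named after its value was seen. The 3 neuronal markers were at a median of 0.72 with 0 called, with miR-124a (one row with miR-124b, 63 counts in all) at 1.19, miR-9-5p (293 counts) at 0.72 and miR-128 (259122 counts) at -0.16, and their summed level was 2409 to 4252 CPM on Day 0, 2937 to 4767 on Day 8 and 2569 to 4162 on Day 16. With the term for miR-486 and miR-451 the median of the 48 members was 0.20, with 35 above 0 and 0 called. The part of the other cells in the cluster's differences was not tested.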

How the data were processed

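Small-RNA libraries (Illumina TruSeq, HiSeq) were made and sequenced by the authors. Trimmed reads were assigned to miRBase entries of cattle and human by sRNAbench, with at most 1 mismatch, and the submitters' processing notes also name Bowtie 0.12.9. The deposited tables hold raw counts per mature miRNA and the authors' RPMM, an RPM value, the reads per 1000000 mapped reads of a library. No replicates were pooled and 0 sample columns were left unused. Totals of 1299679 to 4700764 counts limit the precision of rare members, and a count of 0 allows up to 3 counts, for counting error only.

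Rows with a count in at least 6 of 24 libraries were tested with edgeR 4.0.16 (TMM scaling, quasi-likelihood, day and heifer as terms, R 4.3.3), with Benjamini-Hochberg adjustment over 554 rows, called at 0.1. For single values of members, an exact sign-change test over the 256 patterns of 8 heifers was run on log2(RPMM + 1). The script was tested on simulated data. A prior count of 2 was used for log2 CPM. The heifer numbers pair samples by design, each being 1 animal. With day removed, the 24 same-heifer pairs of libraries had a median r of 0.21 over all rows, against -0.02 between animals.

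Members and lists were chosen with earlier results of these data known. The named members were 6 listed ones, the 12 of highest CPM, the 6 of smallest p at Day 0, 4 for each pair of days and 4 between heifers, and the other arm of a named hairpin. miR-370, miR-377, miR-409a, miR-431, miR-433, miR-376a, miR-376d and the arms of miR-411c were named after their values were seen. Alternatives were run with limma 3.58.1, DESeq2 1.42.0, other filters, scalings and thresholds, and without each heifer. Tables were read with Python 3.11.15. Sequences came from the study's isomiR list, sequences only. A list of predicted miRNAs and the array data were not used here.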

Additional observations from a re-analysis of the deposited data

Results flagged for a closer look

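Of 66 groups of 8 libraries checked, 8 held a library standing apart from the other 7. The limit used is passed by about 1 in 20 groups of independent normal values. Members share libraries and some have few counts, so 8 of 66 cannot be compared with that rate. On Day 0, heifer 16 stood high for miR-411a (262 CPM, others 76.2 to 121), miR-381 (268, others 99.2 to 171) and miR-376e (6.66, others 0.73 to 1.76), in the library with the fewest counts. Heifer 18 stood high for miR-665 on Day 0 (189 CPM, others 90.2 to 134). Heifer 22 stood high for miR-411a on Day 16 (140 CPM, others 81.5 to 107), and heifer 16 low for miR-494 on Day 8 (16.7 CPM, others 29.6 to 40.3). Heifer 34 stood high for miR-1185 on Day 0 (1.12 CPM) and Day 16 (1.83 CPM), on at most 4 counts.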

How the results depend on the processing

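The number of members called moved with the processing, and except where a change in the rows tested or in the threshold makes the number, the cause was not tested. Counts of calls are written as members called of all rows called. DESeq2 left rows of low mean count out of its adjustment at oestrus and for Day 8 against Day 0, so fewer than 554 rows were adjusted there. At oestrus, 1 of 2 was reported. The limit of 25 RPMM gave 2 of 5, no filter on low counts 2 of 5, edgeR's filterByExpr 3 of 8, scaling by total counts 2 of 5, by total counts without miR-486 3 of 6, DESeq2 3 of 12 and the fit with no replicate block 2 of 7. limma on log2(RPMM + 1), on log2(RPMM + 0.1) and with voom weights, the repeated-measures model, the term for miR-486 and miR-451 and an adjusted p under 0.05 gave 0 members each, and an unadjusted p under 0.05 gave 9 of 59. Leaving out 1 heifer gave 0 members (without heifer 18, 22 or 35) to 6 of 20 (without heifer 21). For Day 8 against Day 0 (0 as reported), 25 RPMM gave 2 of 2, filterByExpr 4 of 5, DESeq2 6 of 15, an unadjusted p under 0.05 10 of 58 and leaving out heifers 0 to 8, the 8 of 19 without heifer 21. For Day 16 against Day 0 (0), no filter gave 1 of 3 and an unadjusted p under 0.05 3 of 51, and for Day 16 against Day 8 (0) an unadjusted p under 0.05 gave 1 of 27. For any effect of day (0), no filter gave 1 of 3, filterByExpr 1 of 2, DESeq2 1 of 2 and no replicate block 1 of 3, an unadjusted p under 0.05 7 of 49 and leaving out heifers 0 to 3, the 3 of 5 without heifer 21. Between heifers (1 of 61), 25 RPMM gave 0 of 32, total counts 0 of 67 and without miR-486 0 of 66, an adjusted p under 0.05 0 members, filterByExpr 2 of 62, limma on log2(RPMM + 0.1) 2 of 46, edgeR's robust fit 2 of 55, DESeq2 4 of 92, an unadjusted p under 0.05 4 of 103 and leaving out heifers 0 to 2. Between heifers, limma on RPMM with either pseudocount and the repeated-measures model called miR-1185 and not miR-493. The members above 0 at oestrus, 35 of 48 as reported, were 8 of 8 under 25 RPMM and 21 of 24 under filterByExpr, with fewer members tested. Their median ran from 0.15 (limma, pseudocount 1) to 0.43 (total counts), and from 0.18 to 0.37 without single heifers. Total counts moved the median of all rows by 0.16. Of the members named, miR-376e (0.17 as reported) was at -0.0094 with the term for miR-486 and miR-451 and between -0.0872 and 0.3693 without single heifers, and miR-369-5p (0.01) at -0.035 with voom weights and between -0.124 and 0.1579 without single heifers. Members of a few counts in all, such as miR-154a, are limited by depth.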
